A study of Homo sapiens with 8 samples.

Results

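A set of 10 genes of cholesterol synthesis and sterol handling was followed across 8 Affymetrix arrays of 2 cell lines from T cell acute lymphoblastic leukaemia (T-ALL), a human cancer of immature T cells. They were HMGCS1, MVK, MVD, SQLE, MSMO1, EBP, DHCR7, HSD17B7, STARD4 and MYLIP, 10 of the 14884 genes that carried a symbol on the array. Each was read by 1 probe set, and all 10 lay above the filter on dim probe sets that left 8930 genes for testing. The genes were chosen on measured differences between shTOX, scramble and untransduced arrays of this series, together with their known roles. Their differences between those states, also where one line is set against the other, are therefore given as a description without a test. Tests are given for the level between the lines and for the hairpins.

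The lines were CCRF-CEM and HPB-ALL, both established from T-ALL and both grown in serum-containing medium. Each line gave 4 arrays: cells with the short hairpin RNA (shRNA) shTOX-1 against TOX, cells with shTOX-2, cells with a scramble shRNA, and untransduced cells. The shRNA was delivered by viral spinoculation, and transduced cells were selected with puromycin and kept for at least 2 weeks. The scramble array thus shares transduction and selection with the shTOX arrays, whereas the untransduced array differs from them in virus, selection and time in culture at once, and these cannot be told apart. There was 1 array per line and state, the numbers 1 and 2 name hairpins, and no source states whether arrays stem from separate cultures. With no repeated arrays, the p-values below take their spread from differences among constructs or from unlike shifts in the 2 lines. They measure no spread among repeats of a state, and how much of their spread is technical is not known.

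The values are log2 intensities, so a difference of 1 is a doubling of signal. A level belongs to its own probe set and is not compared between genes. Array medians ran between 4.62 and 4.71, and Pearson r over the tested genes was 0.949 to 0.985 within a line, against 0.876 to 0.908 across lines. TOX was at 10.65 with shTOX-1, 9.86 with shTOX-2, 11.03 with scramble and 11.03 untransduced in CCRF-CEM, and at 10.16, 8.75, 10.59 and 10.64 in the same order in HPB-ALL. Of 7 measured T-lineage markers 6 were above the filter (CD247, CD5, CD7, LCK, ZAP70 and BCL11B), while CD2 was below it and CD3D, CD3E and CD3G were not analysed here. In such bulk RNA, fewer cells with a transcript and less transcript per cell cannot be told apart.

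Cells make cholesterol from acetyl-CoA through the mevalonate pathway to squalene, and then through a long series of sterol intermediates. When sterols in the endoplasmic reticulum run low, the sensor SCAP, otherwise held back by INSIG proteins, escorts the transcription factor SREBP2 (gene SREBF2) to the Golgi for activation, and its targets include nearly all enzymes of the pathway. When sterols are plentiful, liver X receptors (LXR) induce efflux genes and MYLIP, also called IDOL, a ubiquitin ligase that sends lipoprotein receptors for degradation. Dividing lymphocytes draw on this pathway for membrane, and T cells are known to raise it on activation.

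SREBP2 is known to act on promoters together with the factors NF-Y, which binds the box CCAAT, and Sp1. RefSeq promoter windows (GRCh38.p14, 250 bases before to 50 after the start site) were held for 9 of the 10 genes, all but SQLE. The windows of 5 genes are printed 5′ to 3′ on the gene's strand for the 250 bases before the start site, because they cover a mevalonate enzyme and a sterol enzyme that were higher in every transduced array, the sterol carrier, and the pair that did not follow them. Capitals mark CCAAT or its reverse complement ATTGG. The windows are chr5:43313413-43313662 on the minus strand for HMGCS1, chr4:165327419-165327668 on the plus strand for MSMO1, chr5:111512536-111512785 on the minus strand for STARD4, chr1:162790452-162790701 on the plus strand for HSD17B7 and chr6:16128836-16129085 on the plus strand for MYLIP.
HMGCS1: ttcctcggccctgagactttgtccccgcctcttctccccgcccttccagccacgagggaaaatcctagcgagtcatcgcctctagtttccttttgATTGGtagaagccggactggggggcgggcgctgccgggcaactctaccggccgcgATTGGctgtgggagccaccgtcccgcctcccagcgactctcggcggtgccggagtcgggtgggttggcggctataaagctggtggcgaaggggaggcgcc
MSMO1: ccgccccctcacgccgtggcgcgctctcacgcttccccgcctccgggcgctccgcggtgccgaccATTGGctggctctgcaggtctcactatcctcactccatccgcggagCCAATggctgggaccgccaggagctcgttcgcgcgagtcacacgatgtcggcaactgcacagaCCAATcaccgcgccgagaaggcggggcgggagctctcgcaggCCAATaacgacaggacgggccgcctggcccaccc
STARD4: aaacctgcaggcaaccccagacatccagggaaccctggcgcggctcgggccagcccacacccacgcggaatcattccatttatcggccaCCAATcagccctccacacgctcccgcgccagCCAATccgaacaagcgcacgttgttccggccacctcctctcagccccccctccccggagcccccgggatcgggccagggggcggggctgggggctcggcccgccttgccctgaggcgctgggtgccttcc
HSD17B7: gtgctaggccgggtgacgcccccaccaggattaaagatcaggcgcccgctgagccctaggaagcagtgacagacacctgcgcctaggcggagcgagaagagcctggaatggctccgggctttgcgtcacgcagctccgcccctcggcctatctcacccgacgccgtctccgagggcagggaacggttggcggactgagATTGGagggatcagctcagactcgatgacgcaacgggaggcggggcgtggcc
MYLIP: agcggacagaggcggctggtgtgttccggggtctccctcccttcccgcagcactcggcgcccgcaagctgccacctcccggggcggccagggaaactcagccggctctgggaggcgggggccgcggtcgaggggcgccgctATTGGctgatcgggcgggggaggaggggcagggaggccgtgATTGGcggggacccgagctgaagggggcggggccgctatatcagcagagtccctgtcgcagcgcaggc

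All 9 genes with a window held at least 2 CCAAT boxes in 1 window, counting both strands, against 16% of the other tested genes (1116 of 6979) and 12.9% of all genes with a window. The count of 2 was chosen after the matches were seen, and no test was made. MVK held 5 boxes, MSMO1 4, and MVD and EBP 3 each. HMGCS1, DHCR7, HSD17B7, STARD4 and MYLIP held 2 each, and for HSD17B7 one of them lay at +9 to +13, past the printed stretch. HMGCS1 and DHCR7 each had another window at a different start site, and it held no CCAAT box. The 2 genes whose signal was not higher after transduction, HSD17B7 and MYLIP, thus carried the box as well. Among other enzymes with a window, 3 of 5 in the mevalonate pathway held at least 1 CCAAT box. From squalene to cholesterol 5 of 7 did. Of other sterol genes with 1 window, NSDHL and OSBP held 5 boxes each, FDPS, ERG28, TMEM97 and LPCAT3 3 each, and LBR none. As given below, NSDHL, FDPS, TMEM97 and LBR were called higher in transduced cells, and OSBP, ERG28 and LPCAT3 were not. GGGCGG, the Sp1 box, was found on either strand in all 9 genes and in 45% of all 35116 windows, while CCAAT was in 34.6% of them. These shares count windows, and a gene can have several, so they are not matched to the 9 genes. Per gene, 42.7% of the other tested genes held at least 1 CCAAT box, and no such share was counted for GGGCGG. TCACNCCAC, the SREBP site searched for, was in none of the 9 and in 1.13% of all windows. Among the other pathway genes with a window it matched in SREBF2, at -133 to -125, and in MID1IP1, a regulator of fatty acid synthesis. A match of letters is a description and not a site, and a missing match says only that these letters are not in the window.

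**Figure D1:**
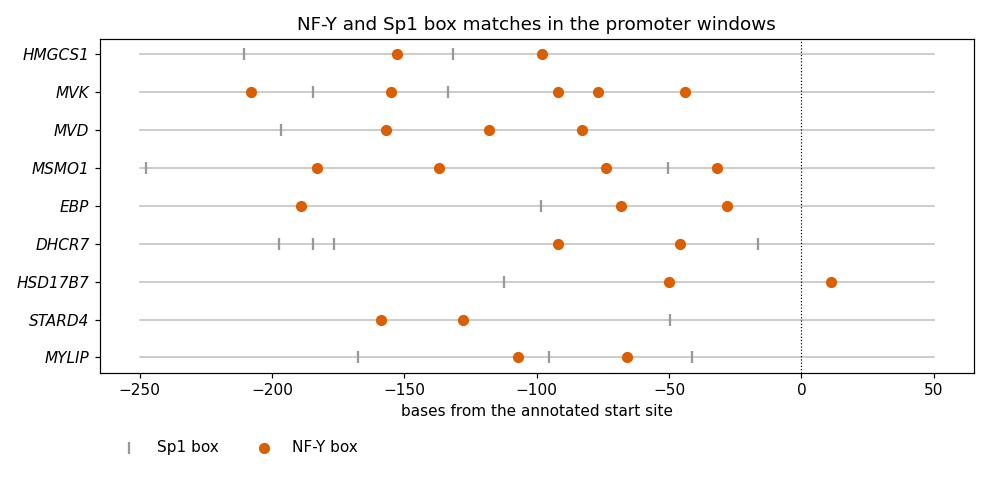
Position of CCAAT boxes (orange circles) and GGGCGG boxes (grey ticks), on either strand, in the promoter window of 9 genes; the horizontal axis is the distance in bases from the annotated start site. Every window drawn has at least 2 CCAAT boxes, with 5 in MVK and 4 in MSMO1. The other window of HMGCS1 and of DHCR7, without the box, is not drawn.

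The mevalonate enzymes had their lowest signal in untransduced cells of both lines. HMGCS1 joins acetyl-CoA and acetoacetyl-CoA to HMG-CoA, an early intermediate of the pathway. Its level was 9.28 with shTOX-1, 9.0 with shTOX-2, 8.15 with scramble and 7.10 untransduced in CCRF-CEM. In HPB-ALL it was 8.89 with shTOX-1, 8.93 with shTOX-2, 9.08 with scramble and 6.83 untransduced. The 3 transduced arrays did not overlap the untransduced array in either line, and their mean was 3.26-fold the untransduced value in CCRF-CEM, against 4.38-fold in HPB-ALL, the highest ratio in each line among the 10 genes. In CCRF-CEM scramble lay between the shTOX arrays and the untransduced array, whereas in HPB-ALL it was the highest of the 4.

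MVK phosphorylates mevalonate. In CCRF-CEM it was at 7.67 with shTOX-1, 7.37 with shTOX-2, 6.61 with scramble and 5.82 untransduced. In HPB-ALL the levels were 7.70, 7.56, 7.65 and 6.36 in the same order. All transduced arrays were again above the untransduced one, by an average of 1.39 in CCRF-CEM, against 1.28 for HPB-ALL.

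MVD decarboxylates mevalonate diphosphate to isopentenyl diphosphate, the first isoprene unit. Its CCRF-CEM levels were 8.22 with shTOX-1, 7.91 with shTOX-2, 7.31 with scramble and 6.56 untransduced. Its HPB-ALL levels were 7.75 with shTOX-1, 7.72 with shTOX-2, 8.03 with scramble and 6.91 untransduced. The order of the arrays matched that of HMGCS1 in CCRF-CEM, with untransduced cells lowest in both lines.

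Among the enzymes after squalene, 4 of 5 showed the same low untransduced arrays. SQLE, squalene epoxidase, makes the first oxygenated intermediate and is a second control point of the pathway. It was at 9.68 with shTOX-1, 9.42 with shTOX-2, 8.83 with scramble and 7.72 untransduced in CCRF-CEM. In HPB-ALL it was at 9.13, 8.97, 9.09 and 7.97 in that order. The transduced mean over the untransduced value was 3.02-fold for CCRF-CEM, against 2.13-fold for HPB-ALL.

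MSMO1 removes methyl groups at carbon 4 of the sterol ring as an oxidase. Its levels in CCRF-CEM were 10.99 with shTOX-1, 10.75 with shTOX-2, 10.12 with scramble and 9.5 untransduced. Its levels in HPB-ALL were 11.01 with shTOX-1, 10.94 with shTOX-2, 11.14 with scramble and 9.61 untransduced. The untransduced and the shTOX arrays of the lines lay close together, and the scramble arrays farther apart.

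EBP, the sterol isomerase that moves the ring double bond, had the smallest fitted difference among the 8 genes with low untransduced arrays. It stood at 8.55 with shTOX-1, 8.35 with shTOX-2, 8.24 with scramble and 7.55 untransduced in CCRF-CEM, and at 8.38, 8.51, 8.45 and 7.58 in HPB-ALL. Its 3 transduced arrays spread by an SD of 0.16 in CCRF-CEM, against 0.07 for HPB-ALL. Their mean was 0.83 above the untransduced array for CCRF-CEM, against 0.87 for HPB-ALL.

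DHCR7 reduces 7-dehydrocholesterol to cholesterol in the last step of one branch. In CCRF-CEM it had 9.40 with shTOX-1, 9.17 with shTOX-2, 8.52 with scramble and 8.07 untransduced. In HPB-ALL it had 9.91 with shTOX-1, 9.81 with shTOX-2, 9.95 with scramble and 8.90 untransduced. Each HPB-ALL array was above the CCRF-CEM array of the same state.

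HSD17B7, which reduces the 3-keto group during removal of the methyl groups at carbon 4, went apart from the other enzymes. Its CCRF-CEM levels were 6.62 with shTOX-1, 6.49 with shTOX-2, 6.96 with scramble and 7.23 untransduced. Its HPB-ALL levels were 7.38 with shTOX-1, 7.30 with shTOX-2, 7.83 with scramble and 7.53 untransduced. The shTOX arrays were the 2 lowest of each line. The pseudogene HSD17B7P2 has a probe set of its own, with CCRF-CEM levels of 8.24, 8.06, 7.99 and 8.37, and HPB-ALL levels of 8.57, 8.70, 8.85 and 8.62 (shTOX-1, shTOX-2, scramble, untransduced). Whether the 2 probe sets bind each other's transcripts was not tested.

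STARD4 carries cholesterol between membranes. It was at 9.03 with shTOX-1, 9.58 with shTOX-2, 8.26 with scramble and 8.11 untransduced in CCRF-CEM. In HPB-ALL it was at 8.49 with both hairpins, 8.63 with scramble and 7.12 untransduced. The CCRF-CEM scramble array was 0.15 above the untransduced one, against 1.51 in HPB-ALL, the widest contrast between the lines for that difference among the 10 genes.

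MYLIP ran the other way. Its CCRF-CEM levels were 5.81 with shTOX-1, 5.57 with shTOX-2, 6.36 with scramble and 7.38 untransduced. Its HPB-ALL levels were 7.32 with shTOX-1, 7.60 with shTOX-2, 8.33 with scramble and 8.36 untransduced. The untransduced array was the highest in both lines, and both shTOX arrays were below scramble in both. The transduced mean was 0.36-fold the untransduced value for CCRF-CEM, against 0.65-fold for HPB-ALL.

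**Figure D2:**
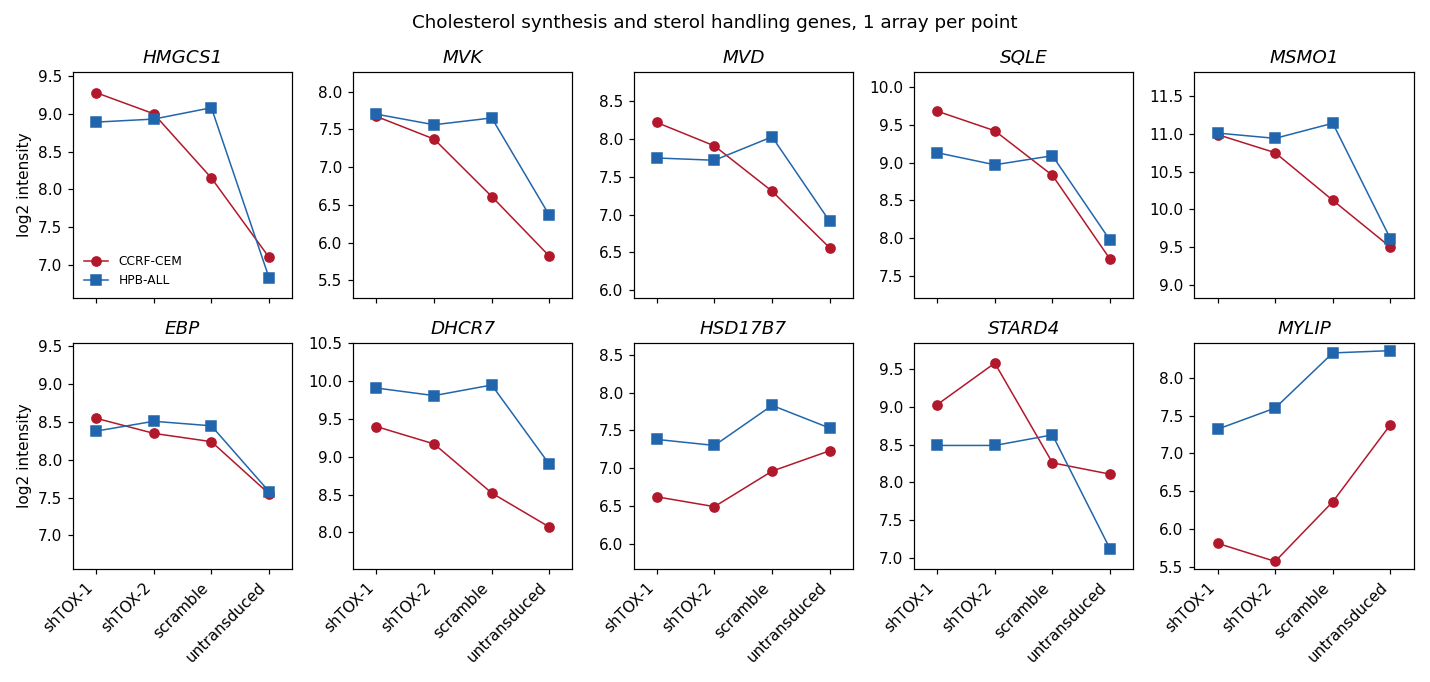
log2 intensity (vertical axis, every panel spanning the same number of log2 units) of the 10 genes in shTOX-1, shTOX-2, scramble and untransduced cells; each point is 1 array, red circles CCRF-CEM and blue squares HPB-ALL, with lines only joining arrays of a cell line. The 8 genes other than HSD17B7 and MYLIP have their lowest point in untransduced cells of both lines, and MYLIP has its highest there.

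Across the 10 genes, the untransduced array lay below all 3 transduced arrays in both lines for 8, every gene but HSD17B7 and MYLIP. Over all tested genes that order held for 20.5%, and the opposite order, shown here by MYLIP alone, for 16.7%. In the fit with line as a term, transduced minus untransduced arrays differed by a median of 1.11 over the 10 genes and 0.032 over all tested genes. The estimates reached from 1.92 ± 0.25 (SE) for HMGCS1 over 1.34 ± 0.21 for SQLE, 1.34 ± 0.23 for MVK, 1.27 ± 0.20 for MSMO1, 1.13 ± 0.28 for STARD4 and 1.08 ± 0.21 for MVD to 0.97 ± 0.20 for DHCR7 and 0.85 ± 0.12 for EBP. HSD17B7 stood at -0.28 ± 0.19 and MYLIP at -1.04 ± 0.29. These estimates rest on 6 transduced and 2 untransduced arrays and describe the differences that chose the genes.

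How far transduced minus untransduced differed between the lines is again a description for the 10 genes. MYLIP had the largest gap, with -1.47 in CCRF-CEM, against -0.61 for HPB-ALL, a difference of -0.86 ± 0.54. For SQLE, at the other end, the difference between the lines was 0.50 ± 0.40. Over all tested genes 0.0672% were called in the test of this difference (6 of 8930).

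The scramble arrays divided the lines. In CCRF-CEM both shTOX arrays were above scramble for the 7 enzymes other than HSD17B7 and for STARD4, with a median difference from scramble over the 10 genes of 0.87 for shTOX-1 and 0.62 for shTOX-2, against -0.65 for the untransduced array. In HPB-ALL the same medians were -0.13 for shTOX-1, -0.15 for shTOX-2 and -1.12 for untransduced cells. HMGCS1 was 1.13 (shTOX-1) and 0.86 (shTOX-2) above scramble in CCRF-CEM, against -0.19 and -0.14 in HPB-ALL. STARD4 was 0.77 and 1.32 above scramble in CCRF-CEM, against -0.14 and -0.15 in HPB-ALL. HSD17B7 and MYLIP were below scramble with both hairpins in each line. HSD17B7 differed from scramble by -0.34 (shTOX-1) and -0.47 (shTOX-2) in CCRF-CEM, against -0.45 and -0.52 for HPB-ALL. MYLIP differed from it by -0.55 and -0.79 in CCRF-CEM, against -1.0 and -0.73 for HPB-ALL. How many of all tested genes show these orders against scramble was not counted, so the orders are a description alone.

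For 5 genes (HMGCS1, MVD, MSMO1, DHCR7 and STARD4) both shTOX arrays were above scramble in CCRF-CEM and below it in HPB-ALL, an order that 12.9% of all tested genes had. The values are among those that chose the genes, so nothing is read from that share. The difference between the lines in shTOX minus scramble was 1.18 ± 0.35 for STARD4, 1.16 ± 0.27 for HMGCS1, 1.04 ± 0.28 for MVD and 0.94 ± 0.29 for MVK. It was 0.23 ± 0.27 for EBP, 0.20 ± 0.29 for MYLIP and 0.08 ± 0.25 for HSD17B7. In the limma test of this difference over all tested genes 0% were called, and 795 had an unadjusted p under 0.05. The contrast rests on 1 scramble array in each line.

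**Figure D3:**
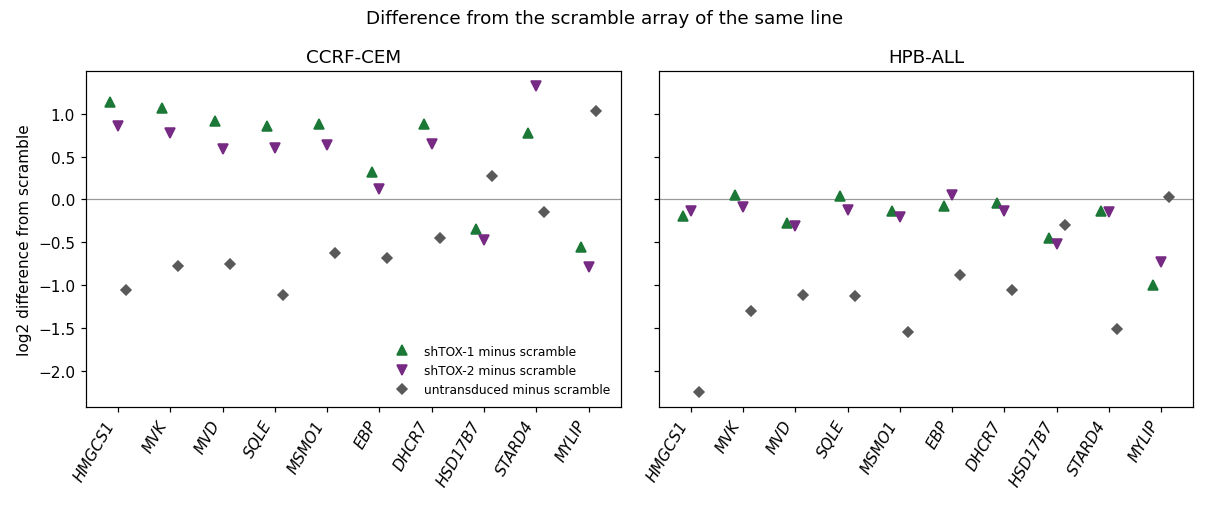
log2 difference from the scramble array of the same line (vertical axis) for shTOX-1 (green, up), shTOX-2 (purple, down) and untransduced cells (grey diamonds), 1 array each, CCRF-CEM left and HPB-ALL right. The 8 genes other than HSD17B7 and MYLIP have both shTOX arrays above scramble in CCRF-CEM, while in HPB-ALL the shTOX arrays of those 8 lie within 0.31 of it.

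Over both lines together, shTOX minus scramble had a median of 0.32 for the 10 genes and 0.016 for all tested genes, with MVK at 0.45 ± 0.20, STARD4 at 0.45 ± 0.27, HSD17B7 at -0.44 ± 0.15 and MYLIP at -0.77 ± 0.20. In this comparison 0% of all tested genes were called by limma, and 459 had an unadjusted p under 0.05. The value rests on the scramble arrays: the median was -0.17 without the CCRF-CEM scramble array and 0.68 without the HPB-ALL one. Set against untransduced cells, which share arrays with the comparisons above, the shTOX difference was 2.06 ± 0.24 and the scramble difference 1.64 ± 0.28 for HMGCS1. For MYLIP they were -1.30 ± 0.20 with shTOX and -0.53 ± 0.24 with scramble, and for HSD17B7 -0.43 ± 0.15 and 0.01 ± 0.17.

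No difference between the hairpins passed the test in the 10 genes. For TOX itself shTOX-2 minus shTOX-1 was -1.10 ± 0.20 (adjusted p = 0.283). For the 10 genes shTOX-2 minus shTOX-1 ran from -0.22 ± 0.24 for MVK (95% interval -0.77 to 0.33) to 0.27 ± 0.32 for STARD4 (-0.47 to 1.01). The adjusted p was 0.887 to 0.996, 0% of all tested genes were called, and 596 had an unadjusted p under 0.05. The estimates for the 10 genes average the lines, which were unlike for some. In CCRF-CEM the hairpin difference was 0.55 for STARD4, against -0.01 in HPB-ALL. For MYLIP it was -0.24 in CCRF-CEM, against 0.27 in HPB-ALL. HMGCS1 and EBP also differed in sign, and the remaining genes were lower with shTOX-2 in both lines.

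Of the 10 genes, 3 differed in level between the lines, all lower in CCRF-CEM. MYLIP averaged 6.28 over the CCRF-CEM arrays, against 7.90 over the HPB-ALL arrays, a difference of -1.62 ± 0.17 (95% interval -2.0 to -1.25, adjusted p = 7.3e-05). DHCR7 differed by -0.85 ± 0.15 (-1.20 to -0.51, adjusted p = 0.00231) and HSD17B7 by -0.68 ± 0.12 (-0.96 to -0.41, adjusted p = 0.0023). Each of the 3 was lower in CCRF-CEM in all 4 states. Among all tested genes 17.6% were called lower and 14.9% higher in CCRF-CEM, so 3 of 10 is close to the share of all genes called in either direction.

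The other 7 did not pass. MVK was at -0.45 ± 0.17 (-0.82 to -0.08, adjusted p = 0.0653) and STARD4 at 0.56 ± 0.22 (0.07 to 1.05, adjusted p = 0.0797). MSMO1 was at -0.33 ± 0.17 (adjusted p = 0.156), while HMGCS1 was at -0.05 ± 0.20 with an interval of -0.49 to 0.39. SQLE, MVD and EBP had estimates of 0.13, -0.10 and -0.06, with adjusted p from 0.590 to 0.729.

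**Figure D4:**
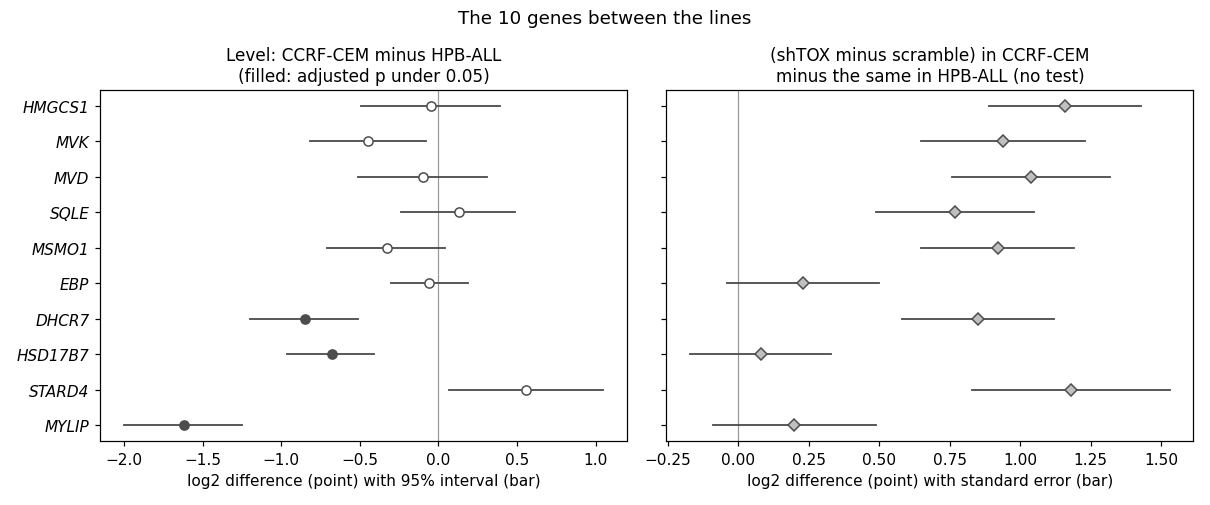
Left, CCRF-CEM minus HPB-ALL over matched states; right, shTOX minus scramble in CCRF-CEM minus the same in HPB-ALL. Points are limma estimates on the log2 scale (horizontal axis). On the left bars are 95% intervals, and the filled points, MYLIP, DHCR7 and HSD17B7, have an adjusted p under 0.05. On the right bars are standard errors, with no test, and the points run from 0.08 (HSD17B7) to 1.18 (STARD4).

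Other genes of sterol metabolism were tested in transduced against untransduced cells, where limma called 5.97% of all genes higher and 5.05% lower. In the mevalonate pathway 5 of 7 listed genes were measured, 4 passed the filter and 3 were called higher. ACAT2, which makes acetoacetyl-CoA in the cytosol, was at 9.09 with shTOX-1, 8.72 with shTOX-2, 8.48 with scramble and 7.63 untransduced in CCRF-CEM, and at 8.58, 8.33, 8.67 and 7.46 in HPB-ALL. It rose by 1.10 ± 0.16 (adjusted p = 0.00564). IDI1, the isomerase that follows MVD, rose by 0.71 ± 0.12 (adjusted p = 0.00911), and FDPS, which builds farnesyl diphosphate, by 0.58 ± 0.15 (adjusted p = 0.034). PMVK, the kinase between MVK and MVD, was at 0.41 ± 0.14 (adjusted p = 0.0865).

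Of 9 further listed enzymes or partners from squalene to cholesterol, 4 were tested and 2 called higher. NSDHL, which acts between MSMO1 and HSD17B7, rose by 1.04 ± 0.16 (adjusted p = 0.00577). It was at 9.63, 9.17, 9.03 and 8.30 in CCRF-CEM and at 9.51, 9.44, 9.57 and 8.41 in HPB-ALL (shTOX-1, shTOX-2, scramble, untransduced). LBR, a nuclear envelope protein with sterol reductase activity, rose by 0.46 ± 0.11 (adjusted p = 0.0246). ERG28, a scaffold for these enzymes, was at 0.40 ± 0.13 (adjusted p = 0.0757) and TM7SF2, the other sterol reductase of that step, at -0.08 (adjusted p = 0.78). The other 5 listed genes were not analysed here.

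Of the regulators, SREBF2 rose by 0.74 ± 0.18 (adjusted p = 0.026), 1 of 6 tested. INSIG1, an SREBP target as well as its brake, was at 0.49 ± 0.25 (adjusted p = 0.226), with -0.04 in CCRF-CEM, against 1.02 for HPB-ALL. The difference between these was -1.06 ± 0.39 (adjusted p = 0.863). SCAP was at 0.22, RNF139 at 0.19, INSIG2 at 0.02 and SREBF1 at -0.12. In lipoprotein uptake and lysosomal release, where 2 of 10 listed genes were measured, TMEM97, a sterol-responsive membrane protein, rose by 0.96 ± 0.13 (adjusted p = 0.0033). VLDLR, a lipoprotein receptor that MYLIP marks for degradation, was at -0.66 ± 0.33 (adjusted p = 0.222), a value that describes neither line. Its untransduced array was above all 3 transduced arrays in CCRF-CEM, where the difference was -1.62, and below all 3 in HPB-ALL, where it was 0.30. The difference between the lines was -1.92 ± 0.29 (adjusted p = 0.075).

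Fatty acid synthesis, which the related factor SREBP1 drives, had 3 of 12 tested genes called higher. FADS2, a desaturase, rose by 0.99 ± 0.15 (adjusted p = 0.00622), FASN, the fatty acid synthase, by 0.68 ± 0.14 (adjusted p = 0.0162) and ACLY, which supplies cytosolic acetyl-CoA, by 0.55 ± 0.14 (adjusted p = 0.0299). In sterol transport and esterification none of 12 was called, and 11 of the 12 had estimates below 0. SOAT2, which esterifies cholesterol, was nearest with -0.71 ± 0.21 (adjusted p = 0.0539), followed by its relative SOAT1 with 0.37 ± 0.12 (adjusted p = 0.0783), the sterol transporter GRAMD1C with -0.39 and the oxysterol-binding OSBPL2 with -0.27. Among LXR targets only LPCAT3 was tested, at 0.38 (adjusted p = 0.266), and none of 3 tested genes of the isoprenoid branches was called (0.06 to 0.26). Over these 8 lists no gene was called lower, where 5.05% of all tested genes were, and nothing is read from that count.

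FDPS, SREBF2 and ACLY sat close to the threshold. FDPS missed it without any 1 of the 4 shTOX arrays (adjusted p = 0.0526 to 0.061), SREBF2 without CCRF-CEM shTOX-2 (0.0528), and ACLY without CCRF-CEM shTOX-1 (0.0537) or shTOX-2 (0.0573). Leaving out untransduced HPB-ALL cells put FDPS at 0.36. Without the CCRF-CEM untransduced array none of the 10 calls in the paragraphs above passed, and without the HPB-ALL one only ACAT2 and TMEM97 did, with estimates that kept their direction. Genes of cell division moved with the same contrast. Of 18 such genes 15 were called higher in transduced cells, with a median of 0.68, led by the cyclins CCNE1 at 1.59 ± 0.32 and CCNB1 at 1.27 ± 0.17 and by BIRC5, a mitotic regulator, at 1.15 ± 0.14. Their mean level in CCRF-CEM was 10.25 with shTOX-1, 10.29 with shTOX-2, 10.30 with scramble and 9.48 untransduced, and in HPB-ALL 10.01, 10.18, 9.91 and 9.32. Their part in the result was not tested. In CCRF-CEM their median difference from scramble was -0.11 for shTOX-1 and 0.05 for shTOX-2, against 0.07 and 0.24 for HPB-ALL. The 6 T-lineage markers had estimates of -0.68 to -0.25, with none called. Above the filter lay 1 of 2 measured B cell markers, 2 of 6 myeloid and 2 of 3 natural killer cell markers. So did 1 of 2 erythroid and megakaryocyte markers and 2 of 3 fibroblast and epithelial markers. None of the markers in these 5 lists was called either. MPO, a myeloid granule enzyme, varied most of them, with CCRF-CEM levels of 5.45 with shTOX-1, 4.94 with shTOX-2, 4.47 with scramble and 4.65 untransduced, and HPB-ALL levels of 5.10, 7.94, 7.03 and 4.83 in that order. Its estimate was 1.08 ± 0.61 (adjusted p = 0.279), and its part in the result was not tested.

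**Figure D5:**
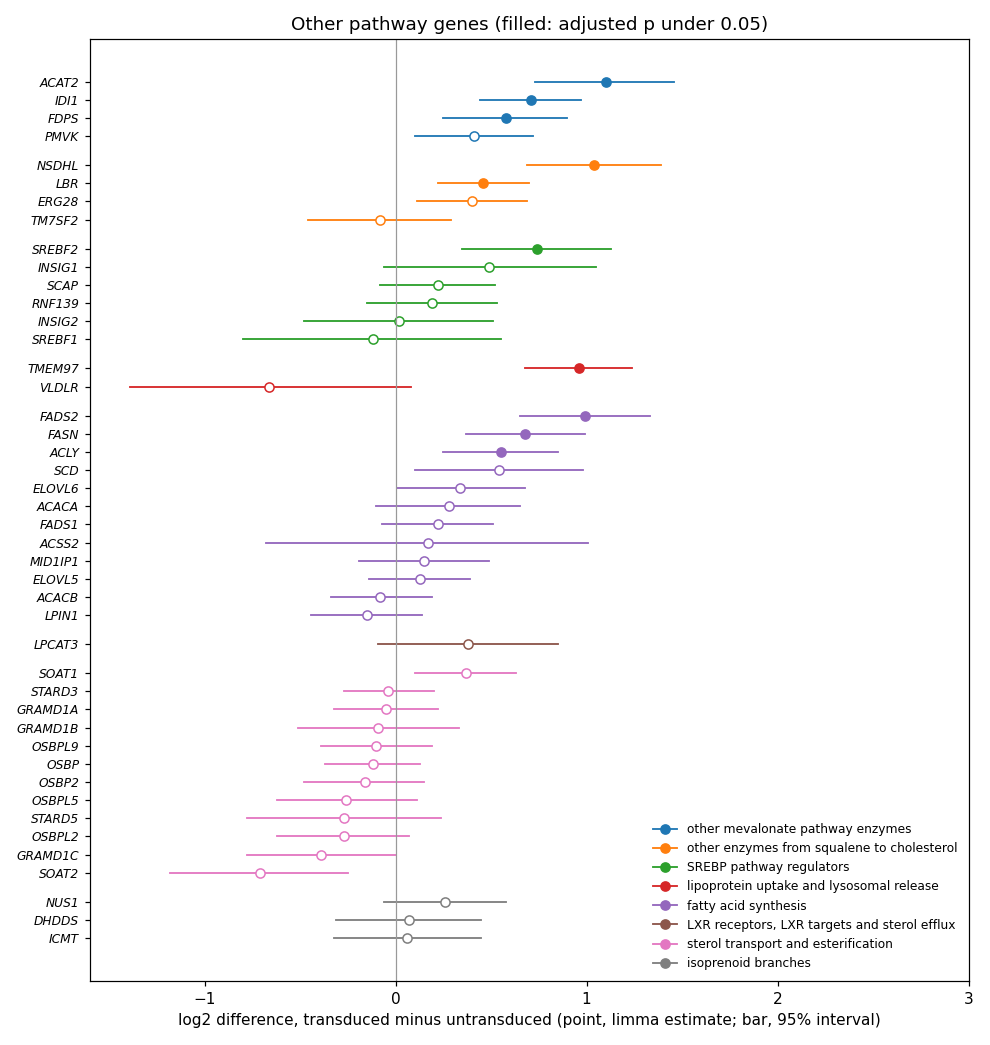
Transduced minus untransduced log2 difference (horizontal axis) of the other tested genes of sterol and fatty acid metabolism, grouped by list; points are limma estimates, bars 95% intervals, and filled points have an adjusted p under 0.05. The 10 filled points, from 0.46 (LBR) to 1.10 (ACAT2), all lie above 0.

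Between the lines, the same lists held calls in both directions, against the 17.6% of all tested genes called lower and 14.9% called higher in CCRF-CEM. OSBP2, an oxysterol-binding protein, was 1.66 ± 0.13 higher in CCRF-CEM (adjusted p = 1e-05), and OSBPL5 0.53 ± 0.14 higher (adjusted p = 0.0161). VLDLR was lower in CCRF-CEM, with a difference of -2.02 ± 0.30 (adjusted p = 0.000727), as were GRAMD1C at -0.97 ± 0.14 (adjusted p = 0.000819) and OSBP at -0.40 ± 0.10 (adjusted p = 0.0125). The VLDLR estimate averages unlike gaps. Its untransduced arrays stood at 8.6 in CCRF-CEM and 9.18 in HPB-ALL, while its transduced arrays averaged 6.99 and 9.48. STARD5, a sterol-binding relative of STARD4, was at -0.83 ± 0.14 (adjusted p = 0.00133), and ICMT, a methyltransferase of prenylated proteins, at -0.92 ± 0.15 (adjusted p = 0.00165). Among the enzymes IDI1 was at -0.52 ± 0.11 (adjusted p = 0.00474), TM7SF2 at -0.40 ± 0.13 (adjusted p = 0.039) and ERG28 at -0.39 ± 0.12 (adjusted p = 0.0301). In fatty acid synthesis 6 of 12 were lower and 1 higher in CCRF-CEM, led by ELOVL6, an elongase, at -1.04 ± 0.14 (adjusted p = 0.000395). LPIN1, SCD, ACLY, FASN and ACACB were at -0.57 to -0.37, and ELOVL5 at 0.31.

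The array profile of the enzymes was summarised as the mean of the line-centred levels of the 8 enzymes among the 10 genes. It stood at 0.58 with shTOX-1, 0.33 with shTOX-2, -0.13 with scramble and -0.78 untransduced in CCRF-CEM, and at 0.24, 0.19, 0.38 and -0.81 in HPB-ALL. The 7 enzymes other than HSD17B7 followed it with Pearson r of 0.973 to 0.995 over the 8 arrays, STARD4 with 0.902, HSD17B7 with -0.536 and MYLIP with -0.767. Measured against the other 7 enzymes, so that a gene does not enter its own profile, the 7 kept r of 0.967 to 0.994 and HSD17B7 had -0.578. These correlations describe 8 arrays that share 2 lines and a common low point in untransduced cells. The 10 genes were chosen on differences between these states, so likeness among them was partly given by that choice, also with a gene left out. Outside the 10 genes, the cell division gene BUB1 ranked 203 in likeness with r = 0.905, above STARD4.

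Of the 8920 other tested genes, those most alike the profile were IDI1 (r = 0.991), ACAT2 (0.986) and NSDHL (0.985), all of the same pathway. They were followed by TKT, the transketolase of the pentose phosphate pathway (0.984), NXNL1, NUCB1 and CMAS (0.983 each), COPS7A (0.979), TMEM97 (0.976) and CYC1, a subunit of respiratory complex III (0.975). The likeness was not confined to sterol genes: the cell division genes BIRC5 (0.951) and MCM2 (0.942) ranked above SREBF2 (0.923), while INSIG1 had 0.662 and SREBF1 -0.191. The genes most opposed were SEC14L1P1 (-0.999), NLGN3 and ZNF302 (-0.993 each), ATXN7 (-0.991) and TIGD1 (-0.990).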

How the data were processed

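Gene expression of 8 arrays was analysed from the deposited log2 intensities, 1 per probe set and array. The log2 scale was judged from the range of the values, and no source used here gives the authors' background correction, summarization or normalization. Per the labels, total RNA was labelled by the GeneChip WT Plus protocol. Of 53617 probe sets 16098 carried 1 gene symbol and 37519 none. For the 779 genes with several probe sets the brightest was used. Tests covered the 8930 of 14884 genes whose mean reached the 40th percentile, log2 5.18.

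Differences were fitted on all 8 arrays with limma 3.58.1 (lmFit, contrasts.fit, eBayes; R 4.3.3), and adjusted p-values are Benjamini-Hochberg values over all tested genes. A gene was called at an adjusted p under 0.05. Transduced against untransduced was fitted with line as a term, shTOX against scramble and the lines with line and 3 treatments, the hairpins with line and 4 constructs, and differences between the lines as interactions, whose estimates for the 10 genes are given without a test. The scripts were tested on simulated data. The number of arrays limits the precision.

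The 10 genes, the gene lists and the tests were chosen with earlier results of these data known. The named genes are the 10 genes in every comparison, up to 6 called genes of each list ranked by size (where none was called, up to 4 with the smallest p), the 10 most alike and 5 least alike the enzyme profile, and TOX. HSD17B7P2 and the T-lineage markers were named beside results they bear on. The alternatives were the filter, the mean of probe sets, quantile normalization, a mean-variance trend, the construct as a replicate block, other terms, and leaving out each array. The hairpin number is the only number the lines share: the shTOX-2 minus shTOX-1 differences of the lines correlated at r = 0.225 across genes, and nothing in the labels ties a number to a shared batch.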

Additional observations from a re-analysis of the deposited data

How the results depend on the processing

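The transduced against untransduced count of called genes rests on the untransduced arrays: it was 984, fell to 78 with line left out as a term, and ran from 12 (without the CCRF-CEM untransduced array) to 1095 over the arrays left out in turn, with 307 without the HPB-ALL untransduced array and 633 without CCRF-CEM shTOX-2. The other cholesterol synthesis enzymes called higher numbered 5, and 2 with line left out as a term, and 0 (without the CCRF-CEM untransduced array) to 5 over the arrays left out, with 1 without the HPB-ALL one. With the construct as a replicate block the count was 923, and FDPS had an adjusted p of 0.0552 at an estimate of 0.58. The block changed no other call among the sterol and fatty acid genes called in this comparison, nor among the 10 genes between the lines. Calls of cell division genes, and of other genes between the lines, were not followed through these runs. FDPS also missed the threshold with the mean of its probe sets, at 0.43 (adjusted p = 0.121).

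The median of the 10 genes for shTOX against scramble ran from -0.17 to 0.68 over the arrays left out. The genes called for the transduction difference between the lines numbered 12 without the filter on dim probe sets and 0 with the filter at the 60th percentile, against 6. For the shTOX against scramble difference between the lines 1 gene was called without the filter, and 0 to 11 over the arrays left out, the most without HPB-ALL shTOX-2. For the hairpins it was 0 to 2, the most without HPB-ALL shTOX-1.

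Between the lines, EBP turned to 0.03 under quantile normalization. Over the arrays left out HMGCS1 ran from -0.16 to 0.24, MVD from -0.25 to 0.10 and SQLE from 0.00 to 0.25, none of which had passed the test. STARD4 passed at 0.87 without either scramble array (adjusted p = 0.00489), and MVK at -0.58 without CCRF-CEM shTOX-1 (adjusted p = 0.0261) and at -0.55 without HPB-ALL shTOX-2 (adjusted p = 0.0487). MYLIP, DHCR7 and HSD17B7 kept their direction and their calls under each alternative run. The cause of these changes was not tested. With 1 array per line and state, no value has a replicate of its own, and a signal over background was not used here.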
